A study of Caenorhabditis elegans with 30 samples.

Results

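The 32 genes described here encode subunits of the proteasome in Caenorhabditis elegans. They were chosen by name: every entry of the deposited tables with a single gene symbol of the pas, pbs, rpt or rpn series. They are 32 of the 25902 genes that the tables name singly. 14 belong to the core particle (7 pas and 7 pbs genes) and 18 to the regulatory particle (6 rpt and 12 rpn genes), and each had 1 probe set. No measured value entered the choice. rpn-13, which the tables list under its sequence name C56G2.7, falls outside the naming rule and is mentioned only where stated.

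Whole-animal RNA was hybridised to 30 Affymetrix arrays, with 3 arrays for each of the 10 groups. By the protocol, every group grew from synchronised L1 larvae to about young adulthood, on plates that held IPTG (1 mM) and carbenicillin (25 µg/mL). The stage that each group had reached was not checked. N2 wild type was fed bacteria with the empty RNAi vector, was fed pmt-2 RNAi, or was moved as young adults to M9 buffer with tunicamycin at 25 µg/mL for 4 hours. Knockouts of 3 stress sensor genes, with no allele named in the labels, were each fed the vector or pmt-2 RNAi; they are called atf-6, ire-1 and pek-1 animals here. A pmt-2 knockout fed the empty vector, labelled as a control for the RNAi, made up the tenth group. Separate cultures are not stated for the 3 arrays of a group, so p-values measure the spread between arrays only. A buffer step is described only for the tunicamycin group, so that its 2 components, M9 and tunicamycin, cannot be told apart.

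The proteasome degrades proteins that carry ubiquitin chains. Its core particle is a barrel of stacked rings: the alpha rings, encoded by the pas genes, gate the entrance, and the beta rings, encoded by the pbs genes, hold the proteolytic sites. The regulatory particle caps the barrel. Its base contains a ring of ATPases, the rpt products, that unfold the substrate, and its lid contains the deubiquitinase that removes the chain. The proteasome also receives misfolded proteins exported from the endoplasmic reticulum (ER), where the products of ire-1, pek-1 and atf-6 sense stress. pmt-2 encodes a methyltransferase on the route to phosphatidylcholine, and tunicamycin blocks N-glycosylation in the ER.

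Values are log2 signals after RMA. Because these are log2 values of 1 probe set per gene, levels were compared between groups and not between genes, except where change is set beside signal level. The medians of the 30 arrays lay between 3.74 and 3.89, and arrays of a group correlated at 0.98 to 0.9937. The number of arrays limits the precision. The mean pmt-2 signal was 10.14 in wild type on vector, 6.63 after RNAi, 8.70 with tunicamycin and 4.70 in the pmt-2 mutant. ire-1 stood at 6.19 (vector) and 6.02 (RNAi) in its own knockout, against 8.07 to 8.80 elsewhere. On vector, pek-1 was at 6.74 in its own knockout and at 7.58 in wild type. atf-6 was at 7.28 in its knockout and at 7.51 in wild type, so the atf-6 probe set did not check that label. The source labels of the RNAi and tunicamycin groups in wild type are exchanged relative to the titles and characteristics, which were used here. Genes passed the test at a limma adjusted p under 0.05 over all 28387 probe sets.

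All 32 genes had a mean log2 signal of at least 5 over the 30 arrays, and 28 had at least 8. Lower calls in these data were commoner among bright probe sets than among all. The 3175 probe sets with a mean of at least 8, a limit chosen after the values were seen, are therefore given beside the counts over all probe sets. The mean of the 14 core genes was 9.42 ± 0.02 (SD, n = 3) in wild type on vector, 9.12 ± 0.14 after pmt-2 RNAi and 8.41 ± 0.07 in the pmt-2 mutant. The mean of the 18 regulatory genes was 9.61 ± 0.02, 9.43 ± 0.10 and 8.61 ± 0.01 in the same order. With tunicamycin the means were 9.42 ± 0.07 for the core and 9.60 ± 0.03 for the regulatory genes, within the spread of the vector arrays and their own. The core arrays after RNAi lay below the vector arrays in each of the 4 genetic backgrounds, and so did the regulatory arrays. In whole animals, less RNA of these genes per cell and fewer cells that are rich in it cannot be told apart.

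**Figure D1:**
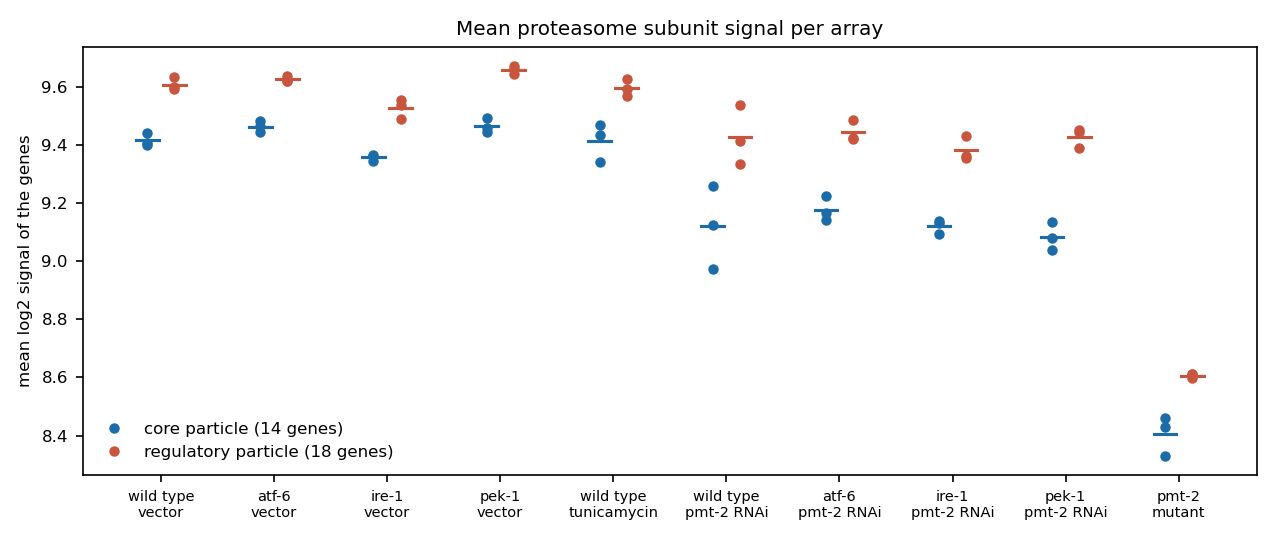
Mean log2 signal of the 14 core genes (blue) and the 18 regulatory genes (orange) on each of the 30 arrays, by group; points are arrays and lines are group means. The 3 arrays of the pmt-2 mutant lie below 8.7 for both particles, the RNAi groups between 8.97 and 9.54, and the vector and tunicamycin groups between 9.34 and 9.67.

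The distance between both particle means differed between groups. On vector it was 0.19 ± 0.01 (SD, n = 3) for wild type, 0.16 ± 0.02 for atf-6, 0.17 ± 0.04 for ire-1 and 0.19 ± 0.02 for pek-1 animals. After RNAi it was 0.31 ± 0.04, 0.27 ± 0.01, 0.26 ± 0.04 and 0.34 ± 0.03 in the same backgrounds. The RNAi arrays lay above the vector arrays of their own background each time. The mean of the 14 core genes had thus lost more than that of the 18 regulatory genes, which includes the dim rpn-6.2. In ire-1 animals rpn-6.2 went from 5.10, 5.27 and 4.77 on vector to 5.63, 5.62 and 5.32 after RNAi, which widens the distance. No distance without rpn-6.2 is given, so a widening in ire-1 animals is not shown for the other regulatory genes. In the pmt-2 mutant the distance was 0.20 ± 0.06 and with tunicamycin 0.18 ± 0.04, both means inside the range of the 12 vector arrays (0.13 to 0.22). In the mutant rpn-6.2 fell below the medians of its arrays (3.87 to 3.89), which narrows the distance by an amount without a measured size. An unchanged distance in the mutant is therefore not shown for the other regulatory genes. These distances are descriptions, and no test was made over the members.

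pmt-2 RNAi in wild type addressed what a lower pmt-2 transcript level does to gene expression. 8 of the 14 core genes and 8 of the 18 regulatory genes fell, and 0 rose. Over all probe sets 17.7% fell and 15.6% rose, and among the bright ones 38% fell and 20.9% rose. The median difference was -0.26 for the core genes and -0.18 for the regulatory genes, beside -0.09 for all probe sets and -0.13 for the bright ones. 11 core and 9 regulatory genes lay below the bright median. 19 of the 32 genes had an unadjusted p under 0.05, as had 41.6% of all probe sets and 67.1% of the bright ones. The members' share was not tested against that of the bright probe sets.

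The alpha ring held the 3 largest falls of the core. 5 of its 7 genes fell, with a median of -0.41. Across 31 members the change went with the vector level (Spearman 0.48), so that dimmer genes tended to fall more. Over bright probe sets the value was -0.24. Among the members it was 0.43, 0.45 and 0.38 for RNAi in atf-6, ire-1 and pek-1 animals, and 0.27 in the pmt-2 mutant. pas-2 and pas-5 averaged 6.73 and 7.45 over the 30 arrays. The part of signal level in the ranking of genes and rings was not tested. pas-5 (F25H2.9, chromosome I, 10566337 to 10567383, plus strand; no source used here gives the build of these coordinates) encodes an alpha subunit. Its log2 signal was 8.0, 7.99 and 7.98 on vector and 7.47, 7.15 and 7.25 after RNAi. All RNAi arrays lay below all vector arrays, by -0.70 in the mean (SE 0.10, limma adjusted p = 5.17e-06), which left 61.5% of the vector signal. pas-2 (D1054.2, chromosome V, 10770301 to 10771332, plus strand) gave 7.24, 7.16 and 7.07 on vector and 6.75, 6.41 and 6.57 after RNAi. The groups were again apart, with a difference of -0.58 (SE 0.09, limma adjusted p = 2.20e-05).

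pas-7 (ZK945.2, chromosome II, 10098719 to 10099808, minus strand), a further alpha subunit, read 9.26, 9.10 and 9.08 on vector and 8.78, 8.32 and 8.61 after RNAi. The difference was -0.58 (SE 0.10, limma adjusted p = 8.42e-05), with no overlap. pas-4 fell by 0.41 and pas-3 by 0.25. pas-6 went the other way: 11.10, 11.14 and 11.14 on vector and 11.35, 11.19 and 11.41 after RNAi. Its RNAi arrays all lay above its vector arrays, yet the difference of 0.19 (SE 0.08) gave a limma adjusted p of 0.0653 and did not pass. It passed as a rise under 3 alternatives: 0.19 with probe sets of a mean of at least 5 only, 0.24 with arrays centred on the bright probe sets, and 0.25 without RNAi replicate 2. The 7 alpha genes thus differed among themselves.

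In the beta ring 3 of 7 genes fell, with a median of -0.24. pbs-4, a beta subunit without a proteolytic site, went from 8.03, 7.99 and 7.99 to 7.66, 7.26 and 7.43 (difference -0.55, SE 0.11, limma adjusted p = 0.000426), with the groups apart. Of the genes for the 3 proteolytic subunits, pbs-2, homologous to the trypsin-like subunit, fell by 0.35. pbs-5, homologous to the chymotrypsin-like subunit, differed by -0.24 and pbs-1, homologous to the caspase-like subunit, by -0.05, and neither passed. pbs-6 differed by -0.01, and its groups overlapped.

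In the base of the regulatory particle 3 of the 6 ATPase genes fell: rpt-4, rpt-1 and rpt-2. rpt-4 (F23F1.8, chromosome II, 42207 to 46216, minus strand) read 9.02, 9.02 and 9.04 on vector and 8.84, 8.37 and 8.48 after RNAi, a difference of -0.46 (SE 0.10, limma adjusted p = 0.000487) without overlap. rpt-1 read 10.07, 9.99 and 10.06 on vector and 9.90, 9.61 and 9.66 after RNAi, a difference of -0.32 (SE 0.08, limma adjusted p = 0.00301). rpt-3, rpt-5 and rpt-6 differed by -0.10, -0.10 and -0.13 and did not pass. Of the 3 other base genes, rpn-1, a scaffold subunit, fell by 0.23. rpn-2, the other scaffold, and rpn-10, a ubiquitin receptor, differed by -0.04 and 0.00.

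Of the 9 lid genes, 4 fell: rpn-5, rpn-12, rpn-3 and rpn-7. rpn-5 (F10G7.8, chromosome II, 4696416 to 4698424, minus strand) encodes a scaffold subunit of the lid and read 9.38, 9.44 and 9.38 on vector and 9.02, 8.61 and 8.70 after RNAi. Its difference of -0.62 (SE 0.10, limma adjusted p = 1.48e-05) left 65.0% of the vector signal, and its groups were apart. rpn-11, which encodes the deubiquitinase of the lid, differed by 0.06 and did not pass. rpn-9 differed by 0.05, and rpn-8, the partner of rpn-11 in the lid, by -0.24 with a limma adjusted p of 0.0510.

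rpn-6 is present as a pair of paralogues. rpn-6.1 (F57B9.10, chromosome III, 6959054 to 6961971, minus strand) is known from studies of longevity and heat resistance in this animal. It read 10.40, 10.38 and 10.40 on vector and 10.49, 10.28 and 10.42 after RNAi, with a difference of 0.00 (SE 0.08). rpn-6.2 (F59B2.5, chromosome III, 8999741 to 9001923, minus strand) was dim, at 5.59, 5.87 and 5.20 on vector and 5.18, 6.1 and 5.64 after RNAi. Its groups overlapped and its arrays spread more widely than those of the other 31 genes in wild type on vector (SD 0.34, against 0.11 or less). Whether the probe sets of the paralogues also bind each other's transcript was not tested.

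The count of 16 rested in part on the pooled spread and on 1 array. With the spread of the compared groups only, 5 genes fell: pas-2, pas-5, pas-7, pbs-4 and rpn-5. Without RNAi replicate 2, whose core mean was 8.97 against 9.26 and 9.13 for the other arrays, 9 genes fell, all among the 16, and pas-6 rose.

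**Figure D2:**
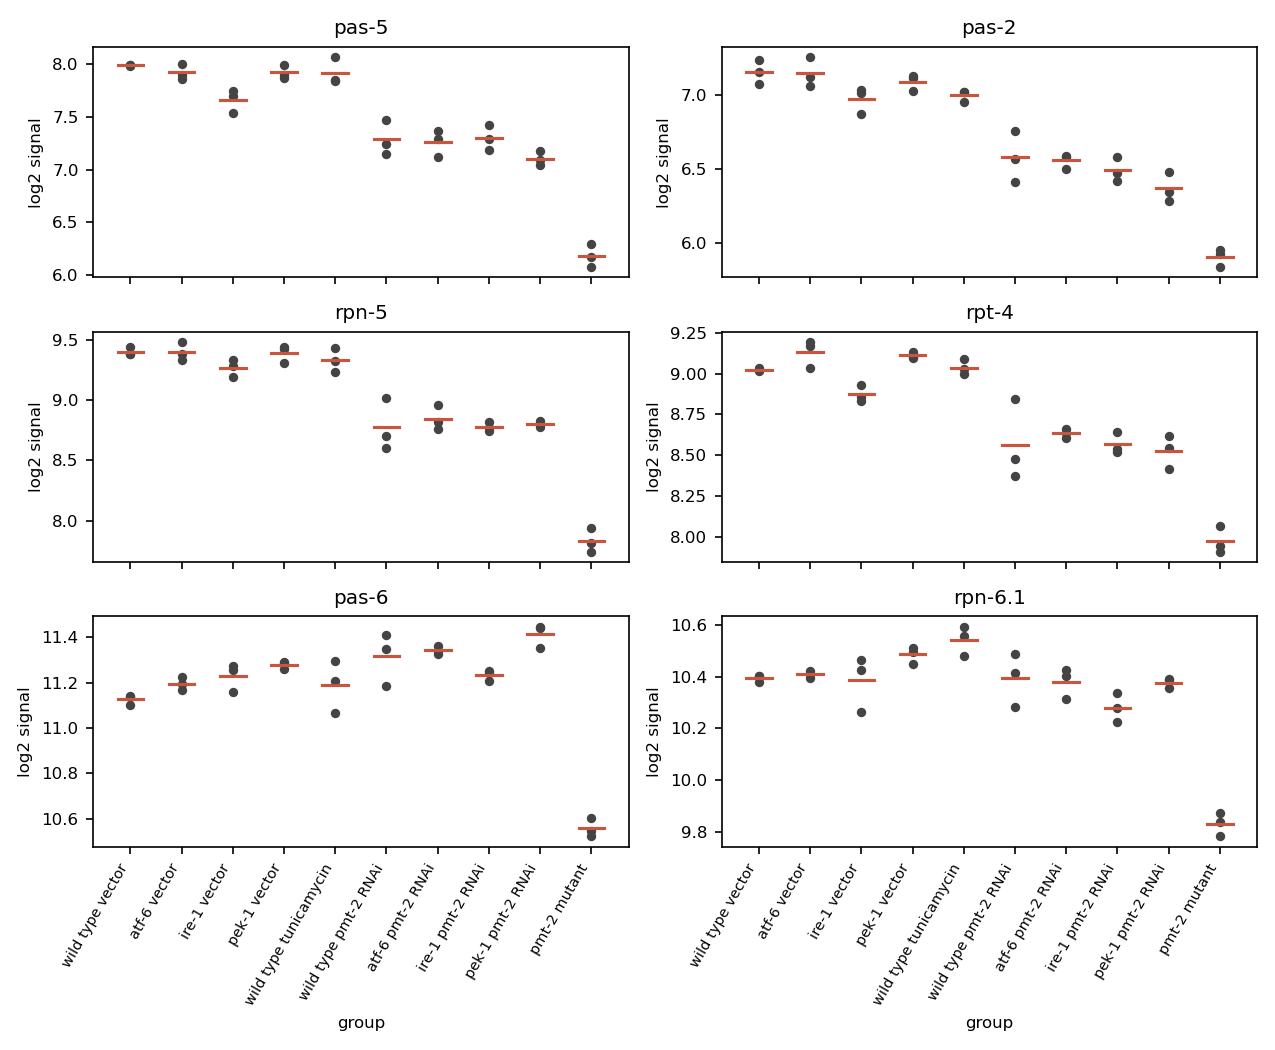
Log2 signal of pas-5, pas-2, rpn-5, rpt-4, pas-6 and rpn-6.1 on each array (points) with the group mean (line), for the 10 groups; the vertical axes differ and do not start at 0. For pas-5, pas-2, rpn-5 and rpt-4 the arrays of every RNAi group lie below those of the vector group of the same background, and for all 6 genes the pmt-2 mutant arrays are lowest.

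The same RNAi was then read in the sensor mutants, each against its own vector arrays, to ask whether the response needs a sensor. In atf-6 animals 8 core and 8 regulatory genes fell and rpn-9 rose (all probe sets: 16.1% lower, 13.8% higher; bright ones: 30.9% and 21.7%). The medians were -0.28 for the core and -0.16 for the regulatory genes, beside -0.09 for bright probe sets. In pek-1 animals 9 core and 9 regulatory genes fell and 0 rose (all probe sets: 25.2% lower, 18.7% higher; bright ones: 44.2% and 23.7%), with medians of -0.39 and -0.19 beside -0.18. In ire-1 animals 5 core and 6 regulatory genes fell and 0 rose (all probe sets: 13.8% lower, 14.3% higher; bright ones: 28.7% and 18.4%), with medians of -0.21 and -0.19 beside -0.09. 19, 19 and 21 of the 32 genes had an unadjusted p under 0.05 in the atf-6, pek-1 and ire-1 mutants, beside 39.1%, 50.7% and 38.1% of all probe sets and 62.8%, 72.4% and 58.5% of the bright ones. The pmt-2 transcript itself went from 10.11 to 6.74 in atf-6, from 10.10 to 7.20 in pek-1 and from 9.65 to 7.47 in ire-1 animals, against 10.14 to 6.63 in wild type. Its fall was smaller than in wild type by 1.33 in ire-1 animals (SE 0.16, limma adjusted p = 3.55e-06), by 0.61 in pek-1 animals (limma adjusted p = 0.0613) and by 0.14 in atf-6 animals (limma adjusted p = 0.919). The ire-1 background thus had both the smallest fall of pmt-2 and the fewest lower subunit genes, and the part of the knockdown in that count was not tested.

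The counts held to different degrees. In atf-6 animals 9 genes passed with the spread of the compared groups only. In ire-1 animals the count was 5 without RNAi replicate 1, 6 without RNAi replicate 3, 7 when the test was rebuilt from the deposited means and SDs, 17 with centred arrays and 21 with probe sets of a mean of at least 5 only. In pek-1 animals it stayed between 17 and 19.

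10 genes fell in all 4 backgrounds: pas-2, pas-4, pas-5, pas-7 and pbs-4 of the core, and rpt-1, rpt-2, rpt-4, rpn-5 and rpn-12 of the regulatory particle. Over all probe sets 6.43% fell in all 4, and over the bright ones 17.1%. 12 genes fell in none, and these include rpn-6.1, rpn-9, rpn-10 and rpn-11. The share of probe sets that fell in none is not given, so the count of 12 is no result about these genes. pas-2, pas-7 and rpn-5 passed as lower in each background under every alternative that was run.

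For pas-5 the level on vector differed between backgrounds as well. In ire-1 animals it read 7.75, 7.54 and 7.70 on vector, below all 3 vector arrays of wild type, and 7.42, 7.19 and 7.29 after RNAi. The difference of -0.36 (SE 0.10, limma adjusted p = 0.00884) was the smallest of the 4 backgrounds, while the mean after RNAi was 7.30, next to 7.29 in wild type. In atf-6 animals it read 8.0, 7.86 and 7.90 on vector and 7.12, 7.37 and 7.29 after RNAi (difference -0.66, SE 0.10, limma adjusted p = 1.36e-05). In pek-1 animals it read 7.99, 7.90 and 7.87 on vector and 7.04, 7.09 and 7.18 after RNAi (difference -0.82, SE 0.10, limma adjusted p = 3.08e-07). RNAi and vector arrays did not overlap in any background.

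pas-2 fell by 0.59, 0.48 and 0.72 in the atf-6, ire-1 and pek-1 mutants (each SE 0.09). It read 7.25, 7.12 and 7.06 on vector and 6.59, 6.58 and 6.50 after RNAi in atf-6 animals. The ire-1 arrays read 7.01, 7.04 and 6.88 on vector and 6.42, 6.58 and 6.47 after RNAi. The pek-1 arrays read 7.13, 7.12 and 7.03 on vector and 6.35, 6.48 and 6.28 after RNAi. No RNAi array of pas-2 reached a vector array of its background.

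pas-4, also an alpha gene, fell by 0.47, 0.30 and 0.64 in the same order. It read 9.68, 9.66 and 9.61 on vector and 9.04, 9.34 and 9.15 after RNAi in atf-6 animals, and 9.73, 9.64 and 9.68 against 9.13, 9.11 and 8.90 in pek-1 animals. The groups were apart in both. pas-7 fell by 0.49, 0.38 and 0.67, and in ire-1 animals it read 9.01, 8.95 and 9.01 on vector and 8.57, 8.65 and 8.60 after RNAi, again apart. The alpha ring medians were -0.47, -0.30 and -0.64, with 5, 4 and 5 of the 7 genes lower. In each background the core gene with the largest fall was an alpha gene, pas-5 or, in the ire-1 knockout, pas-2.

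In the lid, rpn-5 fell by 0.55 in atf-6 animals, 0.49 in ire-1 animals and 0.59 in pek-1 animals (each SE 0.10). In ire-1 animals it read 9.28, 9.19 and 9.33 on vector and 8.77, 8.82 and 8.74 after RNAi, with the groups apart. The atf-6 arrays read 9.38, 9.33 and 9.48 on vector and 8.82, 8.96 and 8.76 after RNAi, and the pek-1 arrays 9.44, 9.31 and 9.42 against 8.82, 8.80 and 8.77. rpn-5 was thus lower on every RNAi array of these backgrounds. rpn-7, a further lid gene, fell by 0.38 in atf-6 animals and by 0.51 in pek-1 animals, and differed by -0.22 in ire-1 animals (limma adjusted p = 0.0731). It read 10.19, 10.08 and 10.12 on vector and 9.68, 9.84 and 9.71 after RNAi in atf-6 animals, and 10.10, 10.02 and 10.14 against 9.63, 9.54 and 9.56 in pek-1 animals, without overlap.

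rpn-12, which encodes another lid subunit, fell by 0.32, 0.38 and 0.34 in the atf-6, ire-1 and pek-1 mutants. In the ire-1 background its arrays read 8.77, 8.77 and 8.82 on vector and 8.33, 8.54 and 8.36 after RNAi, with the groups apart. Among the ATPases rpt-4 fell by 0.50, 0.31 and 0.59, and in ire-1 animals it no longer passed without vector replicate 1 or without RNAi replicate 1 or 3. Its arrays read 8.93, 8.86 and 8.83 on vector and 8.54, 8.64 and 8.52 after RNAi there, apart but close. In atf-6 animals rpt-4 read 9.19, 9.04 and 9.17 on vector and 8.61, 8.66 and 8.64 after RNAi, and in pek-1 animals 9.14, 9.10 and 9.10 against 8.42, 8.62 and 8.54. The groups lay further apart in these backgrounds.

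rpn-9 was the only member called higher in any of the 9 comparisons. In atf-6 animals it read 10.23, 10.20 and 10.23 on vector and 10.41, 10.48 and 10.56 after RNAi, a difference of 0.26 (SE 0.09, limma adjusted p = 0.0325) without overlap. The call was lost when any single array of these groups was left out, except RNAi replicate 1, and also in the rebuilt test and with the spread of the compared groups only. In pek-1 animals the difference was 0.22 with a limma adjusted p of 0.0557, the arrays again apart, and in wild type the groups overlapped. rpn-6.2 read 5.10, 5.27 and 4.77 on vector and 5.63, 5.62 and 5.32 after RNAi in ire-1 animals, a difference of 0.47 (SE 0.19, limma adjusted p = 0.0649). Its RNAi arrays lay above its vector arrays, and it passed under 3 alternatives, with 0.47 under the replicate block, 0.47 with probe sets of a mean of at least 5 only, and 0.59 without vector replicate 2.

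**Figure D3:**
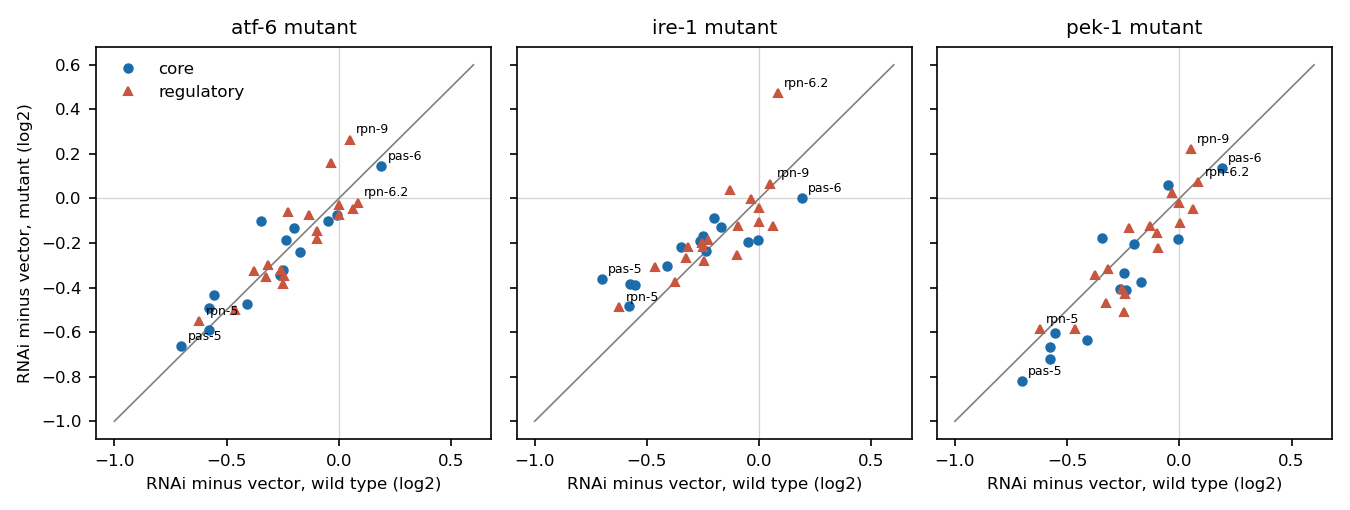
Difference in log2 signal between pmt-2 RNAi and vector for the 32 genes in wild type (horizontal) against the atf-6, ire-1 and pek-1 mutants (vertical); circles are core genes, triangles regulatory genes, and the diagonal marks equal differences. pas-5 and rpn-5 lie at the low end in each panel, and in ire-1 animals the lowest genes lie above the diagonal.

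Whether the response differed between backgrounds was tested directly, as the difference in a mutant minus that in wild type. 0 of 32 genes passed limma's test for atf-6, ire-1 or pek-1, where 0.0282%, 6.25% and 1.24% of all probe sets did. 0, 1 and 1 genes had an unadjusted p under 0.05, beside 6.87%, 16.9% and 12.5% of all probe sets and 6.36%, 28.9% and 9.89% of the bright ones. Among the bright ones 0.126%, 7.46% and 0.945% passed as higher, and 0%, 5.92% and 0.189% as lower. The test rebuilt from the deposited means and SDs also called 0 members. For ire-1 the smallest adjusted p was that of pas-5 (0.34, SE 0.14, limma adjusted p = 0.195), and 23 of 32 differences were positive. For pek-1 it was that of rpn-7 (-0.26, SE 0.13, limma adjusted p = 0.396), and 24 of 32 were negative. The 95% intervals of the 31 genes without rpn-6.2 reached from -0.39 to 0.53 for atf-6, from -0.46 to 0.63 for ire-1 and from -0.52 to 0.45 for pek-1, so differences as large as the RNAi response itself were not excluded for single genes.

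Across the 32 genes, which share arrays within each background while the backgrounds share none, the differences after RNAi in wild type and in atf-6 animals had a Pearson correlation of 0.90. It was 0.91 with the pek-1 mutant and 0.79 with the ire-1 mutant (0.86 without rpn-6.2). Over the 3175 bright probe sets the values were 0.96, 0.94 and 0.78. By Pearson correlation the differences of the subunit genes were thus about as alike between backgrounds as those of bright probe sets. The bright differences span a far wider range (-4.66 to 3.69 in wild type), which limits this comparison. The order of the genes was not compared with that of bright probe sets.

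The pmt-2 mutant differed most. All 14 core and all 18 regulatory genes fell against wild type on vector, while 30.8% of all probe sets fell and 28.4% rose, and 59.1% of bright ones fell and 26.1% rose. The medians were -0.95 and -0.97, beside -0.13 for all probe sets and -0.50 for bright ones. All 32 genes lay below the bright median, and the mutant arrays lay wholly below the vector arrays for each, as they did for 34.8% of all probe sets. rpn-13, outside the rule, fell by 0.60. With arrays centred on the bright probe sets 28 of the 32 still passed, without pas-6, pbs-5, rpn-6.1 and rpn-11. This comparison shares the wild-type vector arrays with the RNAi and tunicamycin comparisons in wild type. Whether the mutant animals had reached the same stage as wild type was not tested.

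Without rpn-6.2, the differences ran from -1.81 in pas-5 to -0.55 in rpn-11. pas-5 read 6.08, 6.30 and 6.17 in the mutant against 8.0, 7.99 and 7.98 on vector, a difference of -1.81 (SE 0.10, limma adjusted p = 2.48e-14) that left 28.6% of the signal. pas-7 read 7.74, 7.81 and 7.79 and pas-2 read 5.84, 5.92 and 5.95 in the mutant, differences of -1.37 (SE 0.10) and -1.25 (SE 0.09). The 4 largest falls of the core in this mutant were in alpha genes, pas-4 being the other (-1.21), with a ring median of -1.21 against -0.93 in the beta ring.

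Among regulatory genes rpn-5 read 7.74, 7.94 and 7.82 in the mutant, a difference of -1.56 (SE 0.10, limma adjusted p = 1.82e-13). rpn-7 read 8.59, 8.74 and 8.63 in the mutant against 10.03, 9.99 and 10.04 on vector, a difference of -1.37 (SE 0.09, limma adjusted p = 5.82e-13). rpt-1 read 8.82, 8.91 and 8.90, a difference of -1.16 (SE 0.08). rpt-5, which had not passed after RNAi in wild type, fell by 1.17, and rpn-9, which rose after RNAi in atf-6 animals, fell by 0.99. The genes with the smallest falls were rpn-11 (-0.55), rpn-6.1 (-0.56), pbs-5 (-0.57), pas-6 (-0.57) and rpn-10 (-0.63). rpn-6.1 read 9.88, 9.84 and 9.78 and rpn-6.2 read 3.61, 3.64 and 3.6 in the mutant, the latter below the medians of these arrays (3.87 to 3.89). Its difference of -1.94 has therefore no measured size and is not ranked.

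**Figure D4:**
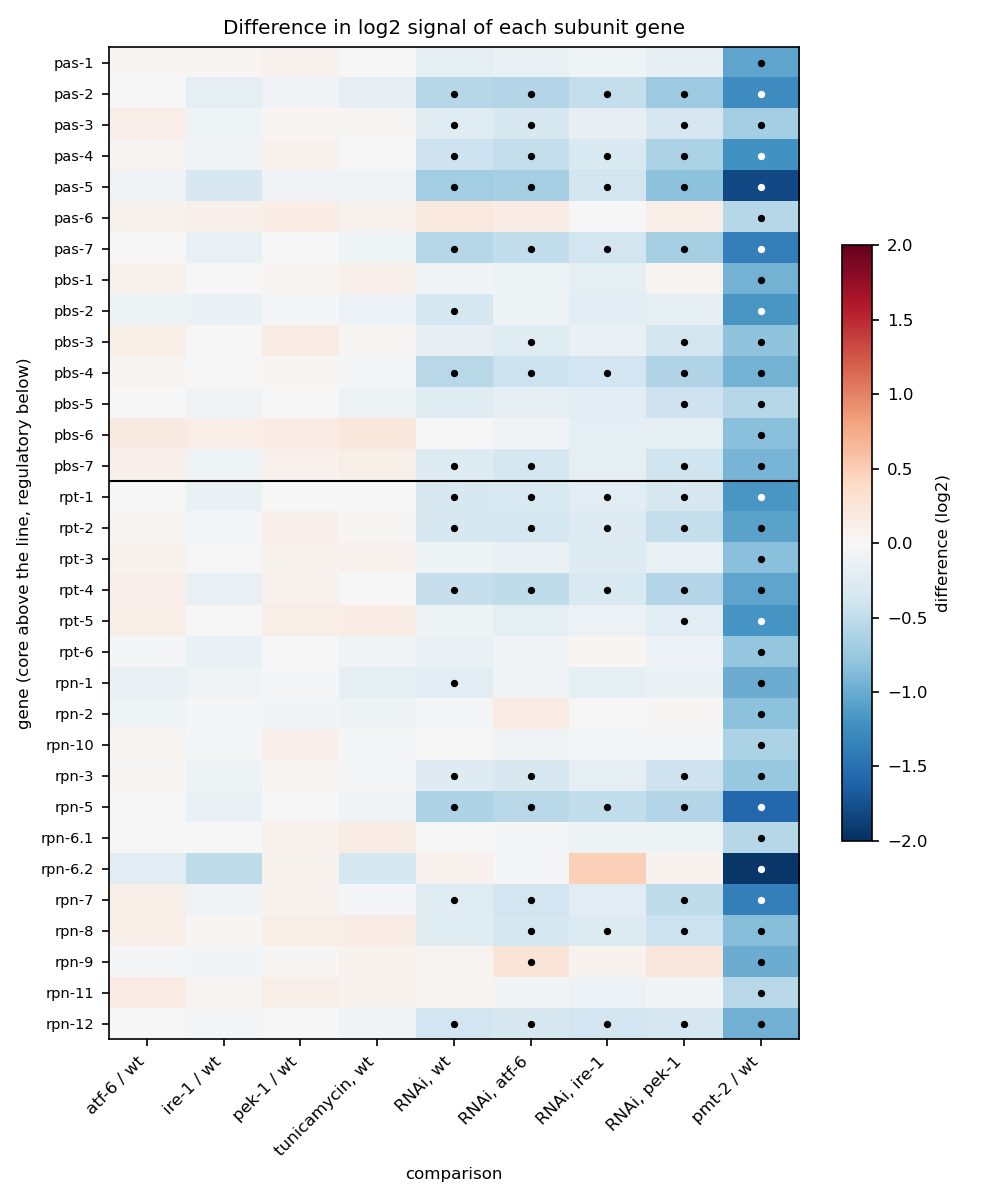
Difference in log2 signal of each of the 32 genes in 9 comparisons; blue is lower and red higher, and a dot marks a limma adjusted p under 0.05 over all probe sets. "atf-6 / wt", "ire-1 / wt" and "pek-1 / wt" are mutants against wild type on vector, "RNAi" is pmt-2 RNAi against vector in the named background, and "pmt-2 / wt" is the pmt-2 mutant, the only column with a dot in all 32 rows.

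Per the labels, tunicamycin was the positive control of the series for an active unfolded protein response. 0 of 32 subunit genes passed limma's test against vector, where 16.6% of all probe sets did, and 2 had an unadjusted p under 0.05, beside 26.7% of all probe sets. Among the bright ones 12.4% passed as higher and 17.4% as lower, and 41.7% had an unadjusted p under 0.05. The rebuilt test called 0. The medians were 0.00 for the core and -0.01 for the regulatory genes, with values from -0.36 in rpn-6.2 to 0.23 in pbs-6. pbs-6 read 9.85, 9.77 and 9.80 on vector and 9.85, 10.13 and 10.13 with tunicamycin (SE 0.10, limma adjusted p = 0.107). 1 tunicamycin array thus stood at the level of the vector arrays, and without it, replicate 1, pbs-6 passed at 0.33.

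The drug arrays lay wholly above the vector arrays for 3 members, pbs-6, pbs-7 and rpn-6.1, and wholly below for 3, pas-2, rpn-1 and rpn-2. Of all probe sets 15.6% lay wholly above and 14.1% wholly below, and the members' separation is no result about them. rpn-6.1 read 10.48, 10.59 and 10.56 with tunicamycin, a difference of 0.15 (SE 0.08, limma adjusted p = 0.229). rpn-1 differed by -0.19 (SE 0.08, limma adjusted p = 0.124). Restricted to probe sets of a mean of at least 5, both pbs-6 (0.23) and rpn-1 (-0.19) passed, and pbs-6 passed at 0.28 with arrays centred on the bright probe sets. The 95% intervals of the 31 genes without rpn-6.2 lay between -0.36 and 0.43.

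On vector, the sensor mutants differed little from wild type in these genes. 0 of 32 passed limma's test in the atf-6, ire-1 or pek-1 mutant, where 0.194%, 6.16% and 0.113% of all probe sets did. 0, 2 and 0 had an unadjusted p under 0.05, beside 10.1%, 18.6% and 8.47% of all probe sets and 7.75%, 23.9% and 2.96% of the bright ones. Among the bright ones 0.126%, 4.44% and 0.0315% passed as higher, and 0.283%, 5.1% and 0.063% as lower. The rebuilt test called 0 in each. In atf-6 animals the medians were 0.05 for the core and 0.02 for the regulatory genes, and in pek-1 animals 0.05 and 0.07. In ire-1 animals they were -0.07 and -0.05, and 27 of the 32 values were negative. There pas-5 differed by -0.33 (SE 0.10, limma adjusted p = 0.0533), and it passed with a limma adjusted p of 0.0128 when only probe sets of a mean of at least 5 were tested. The other gene, rpn-6.2, differed by -0.51 (SE 0.19, limma adjusted p = 0.123), and its arrays overlapped. These 3 comparisons share the wild-type vector arrays.

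Genes that work with the proteasome were read as lists, which were written with earlier results of these data known. 17 of 20 partner genes and 28 of 28 genes for ubiquitin and its activating and conjugating enzymes were measured. After RNAi in wild type 15.6% of all probe sets rose and 17.7% fell, and of the bright ones 20.9% and 38%. The partner counts were not tested against such shares. Of the partners 3 rose and 6 fell, with a median of -0.08. Those lower included psme-3, the activator cap PA28 gamma (-1.18), and the proteasome-bound deubiquitinases ubh-4 (-0.95) and usp-14 (-0.73). Those higher were aip-1, the homologue of the arsenite-induced, proteasome-binding AIRAP (0.74), sel-11, the ER ubiquitin ligase homologous to HRD1 (0.68), and skn-1 (0.35, SE 0.09, limma adjusted p = 0.00222). skn-1 encodes the factor whose isoform A raises subunit genes when the proteasome is impaired. ddi-1 and png-1 encode the protease and the N-glycanase that process that isoform. ddi-1 differed by 0.09 (limma adjusted p = 0.505), and png-1 fell by 0.38.

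Of the 17 partners 3 rose and 4 fell in atf-6 animals, and 3 rose and 7 fell in pek-1 animals. Of all probe sets 13.8% rose and 16.1% fell in atf-6 animals, and 18.7% and 25.2% in pek-1 animals. The bright shares were 21.7% and 30.9% in atf-6 animals, and 23.7% and 44.2% in pek-1 animals. In ire-1 animals 0 partners rose and 4 fell, beside 14.3% and 13.8% of all probe sets and 18.4% and 28.7% of the bright ones. There skn-1 differed by 0.10 (limma adjusted p = 0.452). The response of aip-1 in ire-1 animals was lower than in wild type by 0.60 in the direct test. It was the only 1 of the 17 partners to pass that test, beside 6.25% of all probe sets. Among the bright ones 7.46% passed as higher and 5.92% as lower. In the pmt-2 mutant 28.4% of all probe sets rose and 30.8% fell, and of the bright ones 26.1% and 59.1%. Of the partners 2 rose, skn-1 (0.72) and aip-1 (0.50), and 14 fell. Those lower included psme-3 (-2.62), ubh-4 (-1.86), usp-14 (-1.79), ddi-1 (-1.06) and png-1 (-0.82). With tunicamycin 0 partners rose and 1 fell, aip-1 (-0.34), while 8.24% of all probe sets rose and 8.37% fell. The bright shares were 12.4% and 17.4%. There skn-1 differed by -0.10 and ddi-1 by 0.27 (limma adjusted p = 0.0610).

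Conjugating enzymes moved both ways, as did all probe sets. After RNAi in wild type 5 of 28 genes of ubiquitin, E1 and E2 rose and 7 fell. Of all probe sets 15.6% rose and 17.7% fell, and of the bright ones 20.9% and 38%. The counts of this list were not tested against those shares. ubc-8 (1.64) and ubc-23 (1.27) rose most, and ubc-9, the SUMO conjugating enzyme (-0.88), fell most. In the pmt-2 mutant 7 rose and 16 fell, with ubc-8 at 2.73. Among all probe sets 28.4% rose and 30.8% fell, and among the bright ones 26.1% and 59.1%. With tunicamycin 5 genes of the list rose and 0 fell, beside 8.24% and 8.37% of all probe sets and 12.4% and 17.4% of the bright ones. The mean of this list was 7.82 to 7.88 on the wild-type vector arrays, 7.83 to 7.92 after RNAi and 7.82 to 7.86 in the pmt-2 mutant, which overlapped. With tunicamycin the list mean was 7.92 to 7.99, above every wild-type vector array.

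Markers of cell types were read as lists in the same comparisons. Their counts were not tested against the shares of probe sets. In the pmt-2 mutant 28.4% of all probe sets rose and 30.8% fell, and of the bright ones 26.1% and 59.1%. All 15 oocyte and eggshell markers fell there, with a median of -6.37, and all 14 germ line markers fell, with a median of -4.16. The -6.37 is that of rme-2, whose mean in the mutant was 3.74, below the medians of these arrays. It marks a large fall without a measured size. The mean of the oocyte list was 4.55 to 4.74 on the mutant arrays against 11.06 to 11.16 on vector, and that of the germ line list 5.31 to 5.48 against 9.31 to 9.39. oma-2, an oocyte gene, was at 4.68 and pgl-1, a germ granule gene, at 5.76, against 11.90 and 9.86. All 12 neuron markers rose, 7 of 10 sperm markers fell, and 5 of 7 hypodermis markers rose and 2 fell. The 2 lower ones were col-19 (-7.345) and bli-1 (-1.215), while the other 5 rose by 2.93 (rol-6) to 4.29 (sqt-3). A difference in stage between mutant and wild type was not tested. 4 of 10 muscle markers rose and 3 fell, as did 4 and 3 of 8 intestine markers. The part of these lists in the fall of the subunit genes was not tested.

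After RNAi in wild type 8 of 15 oocyte markers fell (median -0.41), and 10 of 14 germ line markers fell and 1 rose (median -0.45). The oocyte list averaged 10.25 to 11.05 on the RNAi arrays and the germ line list 8.83 to 9.16. 6 of 10 sperm, 11 of 12 neuron and 4 of 10 muscle markers rose. Of 7 hypodermis markers 6 rose and 1 fell, col-19 (-0.66), and of 8 intestine markers 2 rose and 3 fell. Among all probe sets 15.6% rose and 17.7% fell, and among the bright ones 20.9% and 38%. Oocyte markers lower numbered 2 in atf-6 animals, 8 in ire-1 animals and 9 in pek-1 animals, and germ line markers lower 6, 1 and 13. In the same order 16.1%, 13.8% and 25.2% of all probe sets fell, and 30.9%, 28.7% and 44.2% of the bright ones. The number of subunit genes lower in the same order was 16, 11 and 18. With tunicamycin 0 oocyte, 3 germ line, 4 of 10 sperm and 8 of 10 muscle markers fell, and 0 markers of these lists rose. 3 of 12 neuron markers fell and 1 rose, as did 4 and 3 of 8 intestine markers and 2 and 1 of 7 hypodermis markers. Among all probe sets 8.24% rose and 8.37% fell, and among the bright ones 12.4% and 17.4%. In the same comparison 0 subunit genes passed limma's test. The part of the markers in the subunit result was not tested.

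**Figure D5:**
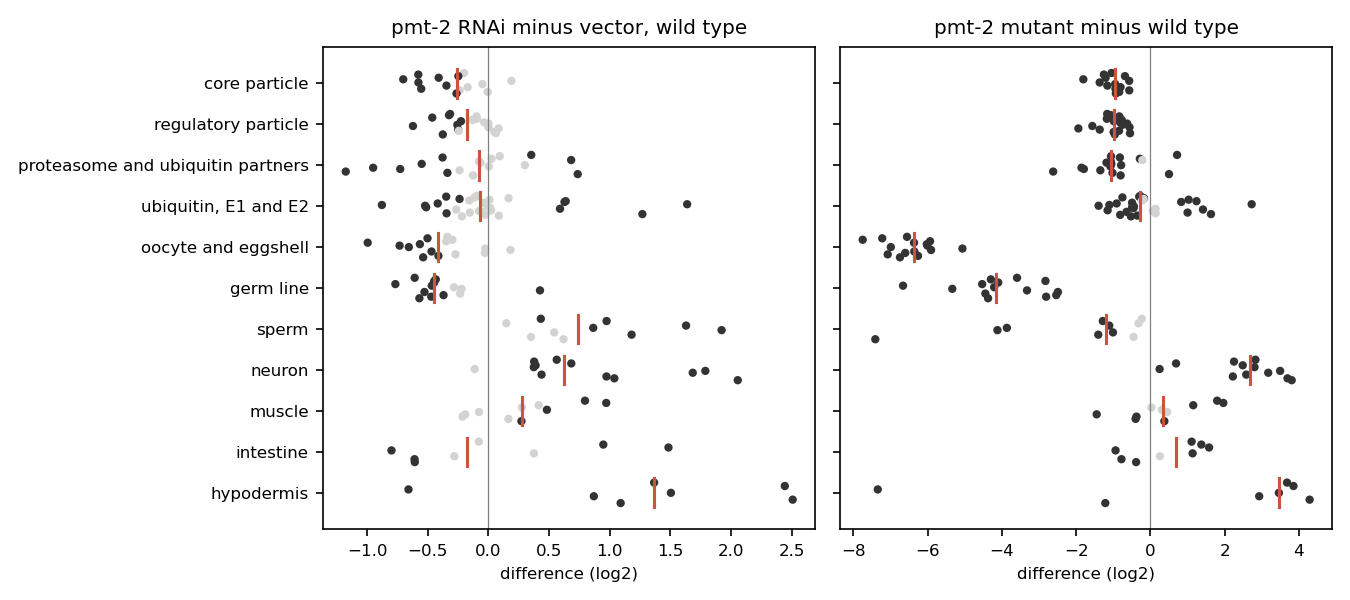
Difference in log2 signal for each gene (points) of the core particle, the regulatory particle, the partner lists and the cell type marker lists, after pmt-2 RNAi in wild type (left) and in the pmt-2 mutant (right); dark points passed limma's test at an adjusted p under 0.05, grey points did not, and the orange bar is the list median. The oocyte and germ line lists lie near -0.4 on the left and at -6.37 and -4.16 on the right, while the subunit medians go from -0.26 and -0.18 to -0.95 and -0.97. The -6.37 belongs to rme-2, whose mean in the mutant lies below the medians of those arrays.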

How the data were processed

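RNA of 30 arrays (10 groups of 3) was analysed. RMA (no version given) was the authors' normalisation per the submitters' processing notes. The deposited value table holds log2 signals per array. The deposited comparison tables hold, per the file headers, a log2 mean and SD per group, with the authors' fold change as a ratio, p-value and FDR p-value, which were not used. The per-array values of the 28387 probe sets in those tables reproduced every group's deposited SD to within 0.005, with a correlation of the means of at least 0.9993, and were therefore tested. 930 further probe sets of the value table were not used.

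Group means were fitted to all 30 arrays with limma 3.58.1 in R 4.3.3 (lmFit, contrasts.fit and eBayes, 20 residual and 4.29 prior degrees of freedom), in 9 comparisons and 3 differences between comparisons. p-values were adjusted by the Benjamini-Hochberg method over all 28387 probe sets, with a threshold of 0.05. Differences are in log2. Members, lists, roles and tests were chosen with earlier results of these data known.

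Genes were named by 1 rule, the 3 core and 3 regulatory genes with the smallest adjusted p in a comparison with calls, plus rpn-6.1 and rpn-6.2. Further genes (among them pas-6, pbs-4, pbs-6 and rpn-9) were chosen after their values were seen. The alternatives were a test rebuilt from the deposited means and SDs (standard error widened 1.182 times), the spread of the compared groups only, a replicate block, a minimum mean signal of 5, centred arrays and leaving out each array. 2 more were chosen after seeing the data: arrays centred on the probe sets with a mean of at least 8, and the spread without the pmt-2 mutant arrays. No sequences are shown.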

Additional observations from a re-analysis of the deposited data

Results flagged for a closer look

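pbs-1, which encodes the caspase-like subunit, had pmt-2 RNAi minus vector differences of opposite sign in the ire-1 mutant (-0.194) and the pek-1 mutant (0.061). In the ire-1 mutant all 3 RNAi arrays (10.05, 10.10 and 10.10) lay below the vector mean, and in the pek-1 mutant all 3 (10.37, 10.47 and 10.35) lay above it. Neither difference passed limma's test (adjusted p = 0.117 and 0.612), and the difference between both mutants was not tested.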

How the results depend on the processing

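The replicate numbers of the titles did not pair the arrays: deviations from the group means correlated at 0.006 for the same number and at -0.003 for other numbers, and in 0 comparisons were all 3 over 0.1. With the replicate block the counts of members called stayed at 16, 0 and 32 for pmt-2 RNAi, tunicamycin and the pmt-2 mutant in wild type, at 17 and 18 for RNAi in the atf-6 and pek-1 mutants, and went from 11 to 12 in the ire-1 mutant.

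With the spread of the compared groups only, 5 genes passed after RNAi in wild type and 9 in the atf-6 mutant. With probe sets of a mean of at least 5 only, 2 passed with tunicamycin, 1 in the ire-1 mutant on vector and 21 after RNAi in the ire-1 mutant, where the rebuilt test gave 7 and centred arrays 17. Centring on bright probe sets gave 1 with tunicamycin. Leaving out single arrays gave 10 to 18 genes after RNAi in wild type, 0 to 1 with tunicamycin, 13 to 16 after RNAi in the atf-6 mutant, 5 to 10 in the ire-1 mutant and 17 to 18 in the pek-1 mutant, and 32 in the pmt-2 mutant. Leaving out single arrays kept the count at 0 in the sensor mutants on vector and in the direct tests between backgrounds. Over all 32 members and all 12 comparisons, 5384 of 5536 alternative values kept their side of the threshold, 110 lost a call, 42 gained one and 0 reversed a call. 32 were lost and 21 gained after RNAi in the ire-1 mutant, 39 and 9 in wild type, 26 and 4 in the atf-6 mutant and 9 and 3 in the pek-1 mutant. Each member had 1 probe set, so averaging probe sets gave no other value. The causes were not tested, and the signal over background of rpn-6.2 limits what can be read from it.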
